A study of Bos taurus with 32 samples.

Results

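The 3 miRNAs described here are bta-miR-126, bta-miR-221 and bta-miR-222, which are best known from blood vessels. They were taken by name from the 672 bovine miRNAs on a custom Agilent array and were followed on all 32 arrays, whatever their level. All 3 were detected on enough arrays to be tested, as were 233 miRNAs in all. The samples came from 16 steers, crosses of Hereford and Aberdeen Angus, about a year old when the feeding began. The Control diet was given to 8 steers and the High fat diet, in which more flaxseed raised the fat content, to the other 8, in both cases until slaughter. Each steer gave subcutaneous fat, taken from the back, and visceral fat, taken from around the kidney, so that the 4 groups held 8 samples each. Total RNA of whole frozen tissue, with its vessels, blood and adipocytes, was labelled with Cy3 and hybridised to 1 array per sample.

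A miRNA is a short RNA that lowers the output of messenger RNAs carrying matching sites, which it recognises mainly through its seed near the 5′ end. miR-126 is enriched in endothelial cells, where it supports the response to VEGF and the integrity of vessels. It is processed from an intron of EGFL7, a gene for a secreted endothelial protein, and MIR126 also lay inside EGFL7 in the bovine annotation used for names. The opposite arm of the same hairpin is bta-miR-126*. miR-221 and miR-222 are made from neighbouring genes and share their seed. In the bovine annotation MIR221 and MIR222 lay on the same chromosome, with 0 other genes starting between them. In the vessel wall they act on KIT and on the cell cycle inhibitor CDKN1B (p27), and they are known to fall as preadipocytes turn into adipocytes.

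The arrays differed in brightness between the diets before any miRNA was compared. The summed intensity of all miRNAs ran from 26021 to 79290 on the 16 Control diet arrays and from 96888 to 366714 on the 16 High fat diet arrays. The ratio of the medians was 5.42, while that of the labelling spike-ins, RNAs added in a fixed amount, was 0.880. The scanner software called 115 to 176 miRNAs detected per Control diet array and 169 to 259 per High fat diet array. Each group was hybridised on a slide of its own and each diet was scanned on a day of its own, so slide and group, and scan day and diet, cannot be told apart. Every difference below is therefore a difference between groups of arrays as well as between diets or depots. Fewer cells of a type and less RNA per cell cannot be told apart in these tissue samples.

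miR-126 was much brighter on the arrays of High fat steers. It was detected on all 32 arrays. In subcutaneous fat its total intensity, in arbitrary scanner units, was 66.4 at the lowest, 237 at the median and 489 at the highest in Control steers. The corresponding subcutaneous intensities of High fat steers were 4575, 7574 and 12450. In visceral fat they were 119, 299 and 584 in Control steers and 3207, 5910 and 12195 in High fat steers. The dimmest High fat diet array was brighter than the brightest Control diet array in both depots, as also held for the summed intensity of all miRNAs. The ratio of the median intensities was 31.9 in subcutaneous fat and 19.7 in visceral fat, against 5.42 for the whole array with both depots pooled. Accordingly miR-126 made up a median of 0.512% and 0.842% of the summed intensity in subcutaneous and visceral fat in Control steers, and of 3.13% and 4.14% in High fat steers.

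**Figure D1:**
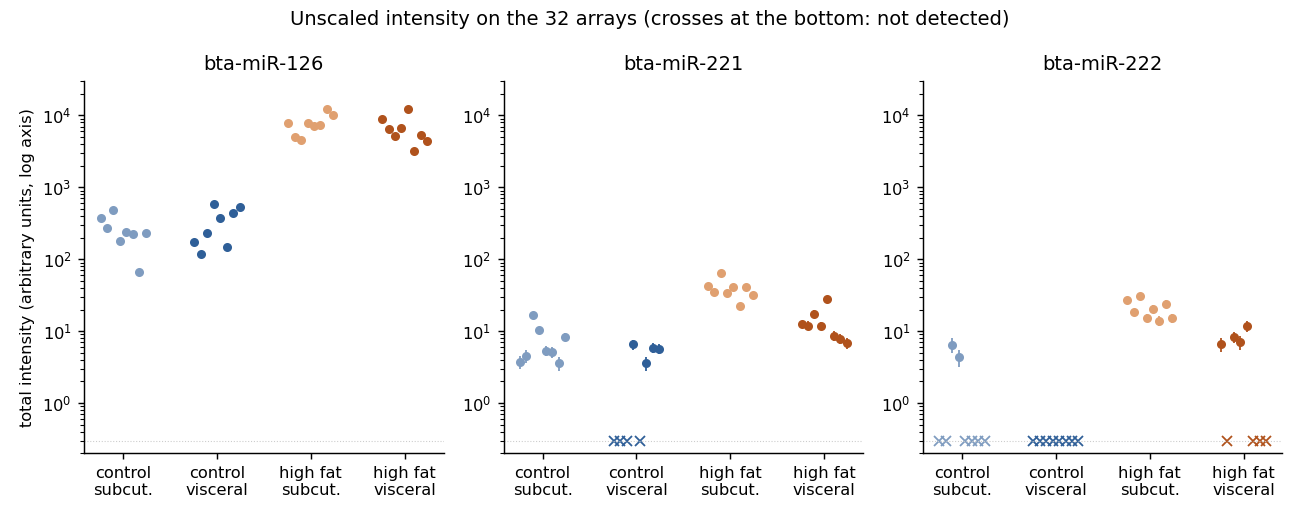
Total intensity (arbitrary units, log axis) of bta-miR-126, bta-miR-221 and bta-miR-222 on each of the 32 arrays, not scaled between arrays, by diet and depot. Each point is 1 steer, vertical bars are the error given by the scanner software, and crosses at the bottom mark arrays on which the miRNA was not detected (4 for bta-miR-221, 18 for bta-miR-222). Levels of different miRNAs, read by different probes, cannot be compared across panels.

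To take the brightness of the array out, each intensity was divided by the 75th percentile of its array, taken over the 91 miRNAs detected on all 32 arrays, and put on the log2 scale. On this scale miR-126 was at -0.08 ± 0.48 (SD, n = 8) in subcutaneous fat and 0.58 ± 0.53 (n = 8) in visceral fat in Control steers. In High fat steers it was at 2.03 ± 0.16 (n = 8) and 2.60 ± 0.24 (n = 8). The spread was smaller among High fat steers, whose scaled level in subcutaneous fat ran only from 1.79 to 2.22. The 4 groups thus ranked, from low to high, as Control subcutaneous, Control visceral, High fat subcutaneous and High fat visceral. Those in the middle, which differ in both diet and depot, did not overlap (highest 1.27, lowest 1.79). This was not tested, and the share of all miRNAs for that pair was not counted. Between diets within subcutaneous and visceral fat, 52.8% and 46.4% of all miRNAs did not overlap.

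**Figure D2:**
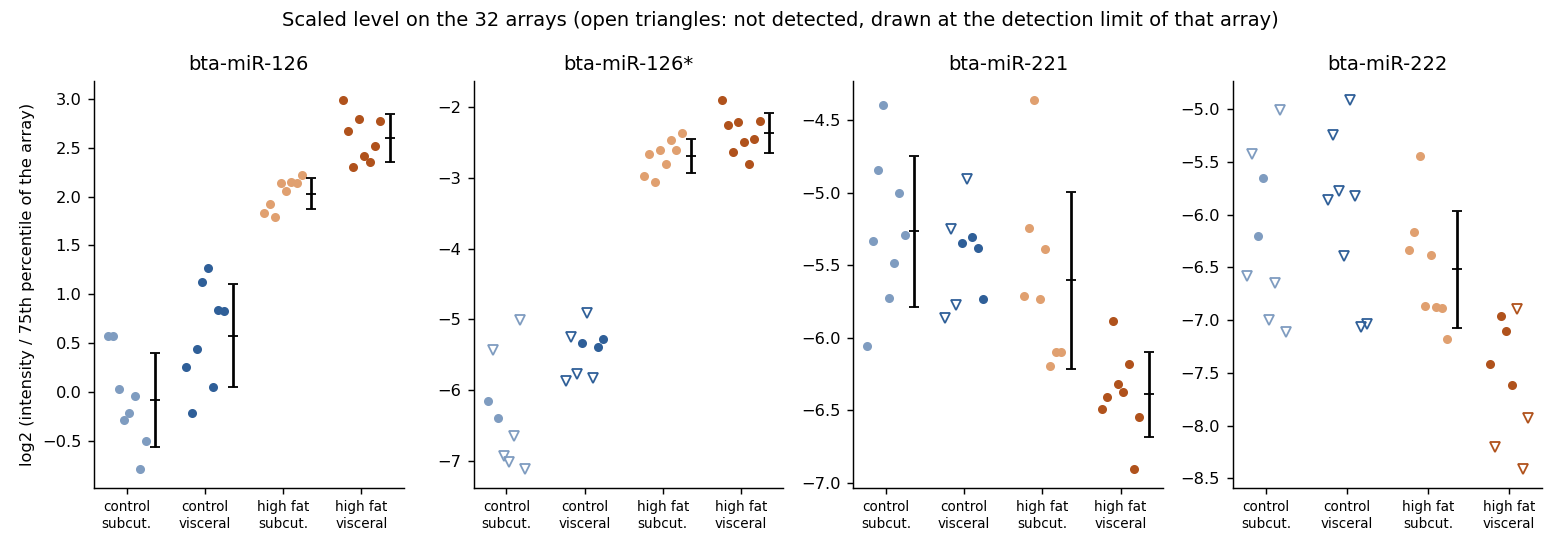
Scaled level, log2 of the intensity over the 75th percentile of the array, of bta-miR-126, the other arm bta-miR-126*, bta-miR-221 and bta-miR-222 by diet and depot. Filled points are arrays with the miRNA detected, open triangles are arrays without it, drawn at the detection limit of that array, and black marks give mean and SD where all 8 arrays detected it. Both arms of the miR-126 hairpin stand higher in High fat steers, whereas the triangles of the Control diet stand as high as the detected levels of bta-miR-222.

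With limma over all 233 miRNAs, the scaled level of miR-126 was 4.32-fold higher in High fat steers in subcutaneous fat (log2 difference 2.11, SE 0.19, adjusted p = 2.04e-11). In visceral fat it was 4.07-fold higher (log2 difference 2.03, SE 0.19, adjusted p = 5.47e-11). It was the only one of the 3 members called in these contrasts. Calls were common, however: 76% of the miRNAs tested differed with diet in subcutaneous fat (41.6% of the miRNAs tested were higher), and 71.7% differed in visceral fat (42.1% higher). Groups that did not overlap were found for 52.8% and 46.4% of all miRNAs. Ranked from the largest rise, miR-126 was 39th of 233 in subcutaneous fat and 49th in visceral fat. The diet difference of miR-126 did not differ detectably between the depots (interaction -0.09, 95% interval -0.64 to 0.47, adjusted p = 0.954). By comparison, 1.72% of all miRNAs showed such an interaction.

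The size of this rise, and even its sign, depended on what the array was scaled to, and is therefore also given as a distance from the other miRNAs. Under the scaling above, the median difference of the 91 miRNAs detected everywhere was -0.91 in subcutaneous fat and -0.80 in visceral fat. Relative to that median, miR-126 was 3.02 log2 units higher in High fat steers in subcutaneous fat and 2.82 in visceral fat. When the percentile was taken over every miRNA on the array, detected or not, the estimate turned to -2.03 in subcutaneous fat, while the median of the 91 miRNAs moved to -5.05. In visceral fat these were -2.42 and -5.24. Under the 15 alternatives and the reported fit, the distance of miR-126 from the median lay between 2.96 and 3.34 in subcutaneous fat and between 2.82 and 3.50 in visceral fat. In 10 of the 15 it equals the reported distance by construction, since they shift every miRNA of an array alike or change only the test.

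**Figure D3:**
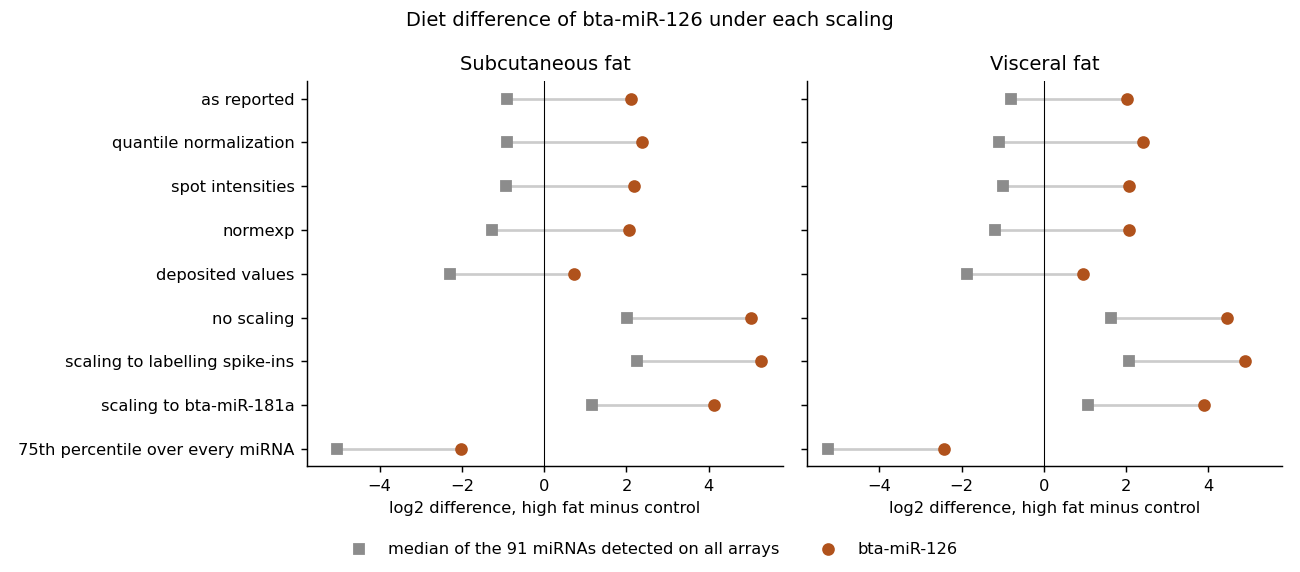
Diet difference (High fat minus Control, log2) of bta-miR-126 (circles) and the median of the 91 miRNAs detected on all arrays (squares) under each scaling or background correction, in subcutaneous (left) and visceral fat (right). Circle and square shift together, by construction where an array is scaled by 1 constant, and the gap between them is near 3 log2 units.

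Both probes for miR-126 gave nearly the same differences. Their intensity ratio was between 2.87 and 3.80 on all 32 arrays, with a median of 3.31. Without scaling, the diet difference was 5.08 on the log2 scale by the first probe and 5.01 by the second in subcutaneous fat. In visceral fat it was 4.56 and 4.41. The error that the scanner software attached to the total of miR-126 was near 8% in every group (medians 7.96% to 8.15%). The brighter probe read a median of 9.97 to 9.99 times its error in every group. This error is thus a nearly constant share of the signal and does not measure the spread between steers or arrays.

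Between depots, the visceral level of miR-126 exceeded the subcutaneous level at either diet, by a much smaller amount. In Control steers the log2 difference was 0.66 (1.58-fold, SE 0.19, adjusted p = 0.0130), the groups overlapped, and 6 of the 8 steers had the higher level in visceral fat. Visceral minus subcutaneous values within these steers ran from -0.79 to 1.63. In High fat steers the difference was 0.57 (1.49-fold, SE 0.19, adjusted p = 0.0274), and the groups did not overlap. All 8 steers were higher in visceral fat, by 0.20 to 1.16 with a median of 0.53. For scale, 18.9% of the 233 miRNAs were called between depots in Control steers (6.87% higher and 12% lower in visceral fat) and 26.2% in High fat steers (11.6% higher and 14.6% lower). Groups that did not overlap were found for 0% and 9.44%. Both calls were lost when the steer was entered as a replicate block (adjusted p = 0.0695 and 0.0973). The direction in High fat steers rested on scaling: unscaled, the difference was -0.30, the visceral arrays being dimmer as a whole.

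The other arm of the hairpin, bta-miR-126*, was seen mainly in High fat steers. It was detected on 2 of 8 subcutaneous and 3 of 8 visceral arrays in Control steers and on all 16 High fat diet arrays. On the latter its intensity was 158 to 461 in subcutaneous fat, with a median of 286, and 89.7 to 406 in visceral fat, with a median of 188. In Control steers the arrays that detected it read 3.53 to 5.73 and 5.82 to 7.81. With each undetected array set to the higher of its own detection limit and the summed signal of the probes, its scaled level was 9.43-fold higher in High fat steers in subcutaneous fat and 8.08-fold higher in visceral fat. The limma fit instead set undetected arrays to a common floor, defined with the processing, where most Control diet arrays of bta-miR-126* stood. It gave log2 differences of 4.29 and 4.14 (adjusted p = 1.28e-14 and 2.82e-14), so the floor enters both. Without the High fat diet arrays, bta-miR-126* would not have been detected on enough arrays to be tested. No depot difference of bta-miR-126* passed the threshold (0.47, adjusted p = 0.272, in Control steers and 0.33, adjusted p = 0.453, in High fat steers).

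Where both arms were detected, their ratio on the same array is free of any scaling. In High fat steers the log2 ratio of bta-miR-126* to miR-126 was -4.73 ± 0.11 (SD, n = 8) in subcutaneous fat and -4.97 ± 0.08 (n = 8) in visceral fat, so that the arms kept step from steer to steer. Where both were detected in Control steers, it was -6.57 ± 0.22 (n = 2) and -6.26 ± 0.18 (n = 3). With undetected arrays at the higher of limit and probe signal, the ratio was higher in High fat steers by 1.13 in subcutaneous and 0.99 in visceral fat. The fit with undetected arrays at their own limit gave 1.52 (adjusted p = 1.41e-06) and 1.05 (adjusted p = 0.000257). On Control diet arrays the brighter probe of bta-miR-126* read a median of 2.95 and 2.70, against errors of 1.23 and 1.37. With normexp, a background correction that adds an offset of 50 to every spot, the scaled diet difference of bta-miR-126* turned to -0.51 and -0.37.

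miR-221 read close to the detection limit in Control steers, and its scaled level did not pass the threshold between the diets, in a direction that turned with the scaling. It was detected on all 8 subcutaneous and on 4 of 8 visceral arrays of the Control diet, and on all 16 arrays of the High fat diet. In subcutaneous fat its intensity was 3.58 to 16.7 in Control steers, with a median of 5.26, and 22.5 to 64.7 in High fat steers, with a median of 37.8. The median thus rose 7.18-fold, beside 5.42-fold for the whole array with both depots pooled. In visceral fat the 4 Control diet arrays that detected it read 3.61 to 6.57, and the High fat diet arrays 6.94 to 27.7, with a median of 11.99. On the scaled log2 axis it was at -5.27 ± 0.52 (SD, n = 8) in Control steers and -5.60 ± 0.61 (n = 8) in High fat steers in subcutaneous fat. Those groups overlapped, and the difference of -0.34 had a 95% interval of -0.98 to 0.30 (adjusted p = 0.335). In visceral fat the fitted difference was -0.06 (95% interval -0.70 to 0.58, adjusted p = 0.908), with 4 Control diet arrays at the common floor. Unscaled, the diet difference of miR-221 was called higher, at 2.58 and 1.68 in subcutaneous and visceral fat. With the percentile over every miRNA it was called lower, at -4.48 and -2.79. Relative to the median of the 91 miRNAs it lay between -0.80 and 0.57 in subcutaneous fat and between -0.59 and 2.46 in visceral fat over the settings tried.

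Between depots, the fitted level of miR-221 was lower in visceral fat at either diet, by a call that depended on the setting. On the High fat diet, where every array detected it, the scaled level was -6.39 ± 0.29 (SD, n = 8) in visceral against -5.60 in subcutaneous fat. The difference of -0.78 (SE 0.31) missed the threshold in the unblocked fit (adjusted p = 0.0614) and passed it with the steer as a replicate block (adjusted p = 0.0240). It also passed without scaling (adjusted p = 6.11e-05), with scaling to the spike-ins (0.000711) or to bta-miR-181a (0.00655), with undetected arrays of all miRNAs at their own limit (0.0138) and with quantile normalization (0.0280). Without scaling and with the spike-ins, the median of the 91 miRNAs was itself lower in visceral fat (-0.72 and -0.37). The difference stayed uncalled under 7 alternatives, among them the deposited values (adjusted p = 0.440), single spot intensities (0.209), the position on the slide as a block (0.0706) and the brightest probe (0.0551). In 7 of 8 steers the visceral level was the lower, by up to 1.53. The exception differed by 0.02. In Control steers the fitted difference was -1.07 (SE 0.31, adjusted p = 0.0138), which was 2.09-fold, but it rested on the 4 undetected visceral arrays. With those arrays at their own detection limit it was -0.18 (adjusted p = 0.569), and among the 4 steers with both depots detected 3 were lower in visceral fat. The depot difference did not differ detectably between the diets (interaction 0.28, 95% interval -0.62 to 1.19, adjusted p = 0.891). normexp turned the depot difference in High fat steers to 0.50 (adjusted p = 0.0138).

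miR-222 was near the detection limit outside High fat subcutaneous fat. It was detected on 2 of 8 Control subcutaneous arrays, on 0 of 8 Control visceral arrays, on all 8 High fat subcutaneous arrays and on 4 of 8 High fat visceral arrays. Its brighter probe read 0.539 to 6.49 in Control subcutaneous fat, with a median of 2.55, and -0.264 to 2.67 in Control visceral fat, with a median of 0.851. That probe read 14.01 to 30.5, with a median of 19.4, in High fat subcutaneous fat and 2.58 to 11.7, with a median of 6.08, in High fat visceral fat. Neither diet difference passed the threshold (0.38, adjusted p = 0.0934, and 0.05, adjusted p = 0.876), and unscaled both were called higher (2.67 and 0.82) while with normexp both were called lower (-2.14 and -1.79). The arrays cannot settle its direction with diet. The lowest scaled level that counted as detected lay between -7.34 and -4.91 on Control diet arrays, while miR-222 itself was at -6.52 ± 0.56 (SD, n = 8) in High fat subcutaneous fat. Detection on more High fat diet arrays is thus no measure of a higher scaled level.

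Between depots in High fat steers, the fitted level of miR-222 was lower in visceral fat, by a call that depended on the setting. The fitted difference was -0.66 (SE 0.21, adjusted p = 0.0186). With the 4 undetected visceral arrays at the higher of their own limit and their probe signal it was -0.91. All 4 steers with both depots detected were lower in visceral fat, by 0.23 to 1.52. With the brighter probe alone, the difference was -0.75 (adjusted p = 0.0138). In Control visceral fat that probe exceeded 3 times its error on 0 of 8 arrays, so that no depot difference can be read for Control steers (-0.32, adjusted p = 0.317, in the reported fit, with both groups mostly at the floor). The depot difference of miR-222 did not differ detectably between the diets in that fit (interaction -0.33, 95% interval -0.93 to 0.26, adjusted p = 0.742). The depot difference in High fat steers lost its call under 5 alternatives. Among these were quantile normalization (-0.31), single spot intensities (-0.33) and the deposited values (-0.051). Under normexp it turned to 0.54 (adjusted p = 0.00881).

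miR-221 and miR-222 kept step with each other. On the 8 High fat subcutaneous arrays their log2 ratio, miR-222 over miR-221, was -0.91 ± 0.19 (SD), and on the 4 High fat visceral arrays with both detected it was -1.01 ± 0.20. The 2 Control subcutaneous arrays on which miR-222 was detected were those with the highest scaled miR-221 of their group (-4.84 and -4.40). The same High fat steer had the highest scaled level of both miRNAs in subcutaneous fat, at -4.36 for miR-221 and -5.44 for miR-222. It was also highest for both in visceral fat, at -5.89 and -6.96. The fitted ratio rose with diet in subcutaneous fat (0.72, adjusted p = 0.0445, where 64.7% of all miRNAs changed their ratio to miR-221). This call rested on undetected arrays, since with their own limits the difference was 0.02 (adjusted p = 0.948).

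Within an array, the ratio of miR-221 to miR-126 differed with diet and with depot. With diet this reflects the larger rise of miR-126. Unscaled, both were higher in High fat steers, miR-126 by 5.02 and 4.45 and miR-221 by 2.58 and 1.68 in subcutaneous and visceral fat. The log2 ratio of miR-221 to miR-126 was -5.18 ± 0.86 (SD, n = 8) in Control subcutaneous fat and -7.63 ± 0.74 (n = 8) in High fat subcutaneous fat. That fall of 2.45 (SE 0.38, adjusted p = 4.11e-07) was joined by one of 2.08 (SE 0.38, adjusted p = 6.81e-06) in visceral fat, where 4 Control diet arrays stood at the floor. Changed ratios to miR-126 were the rule, with 85.8% of all miRNAs called in each depot. Between depots in High fat steers the ratio of miR-221 to miR-126 was lower in visceral fat in all 8 steers, by 0.19 to 2.04 (mean difference -1.36, SE 0.38, adjusted p = 0.00585), where 40.5% of all miRNAs were called. In Control steers the depot difference of this ratio was -1.72 (adjusted p = 0.000683), where 61.6% were called, and -0.84 (adjusted p = 0.0553) with undetected arrays at their own limit.

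**Figure D4:**
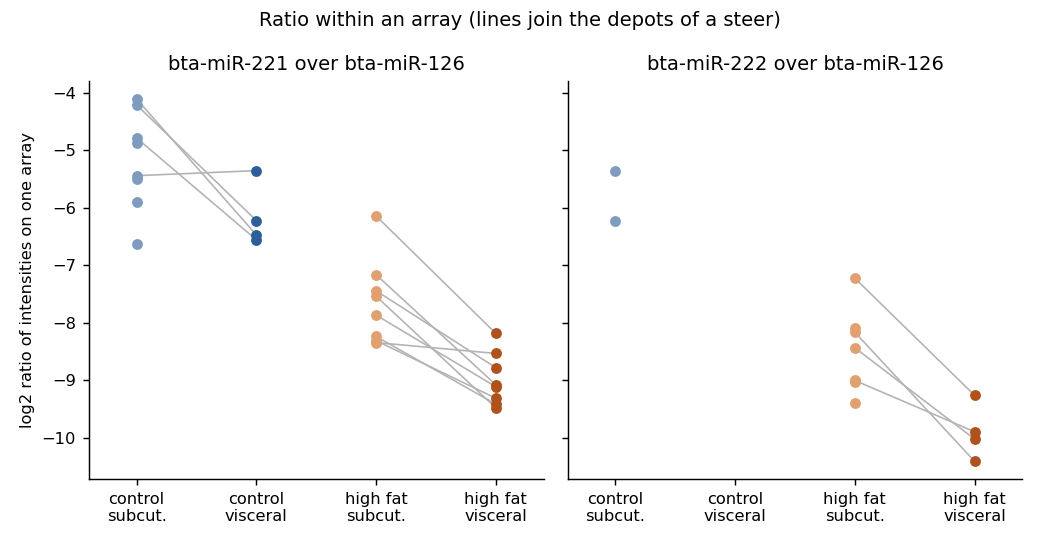
Log2 ratio of the intensity of bta-miR-221 (left) and bta-miR-222 (right) to that of bta-miR-126 on the same array, for arrays with both detected, with lines joining the depots of a steer. The ratio of bta-miR-221 is on average lower in High fat steers than in Control steers, and all 8 High fat steers have a lower ratio of bta-miR-221 to bta-miR-126 in visceral fat.

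The ratio of miR-222 to miR-126 could be read in High fat steers only, since miR-222 was detected on 2 of 8 and 0 of 8 Control diet arrays. Its fitted diet differences (-1.73 in subcutaneous and -1.98 in visceral fat) set a constant floor against miR-126 and so largely restate miR-126 itself. The same holds for its depot difference in Control steers (-0.98, adjusted p = 0.00883), which lost its call with undetected arrays at their own limit (-0.47, adjusted p = 0.538). Visceral minus subcutaneous, the ratio differed by -1.23 (adjusted p = 0.00217) in High fat steers, with 4 visceral arrays at the floor. For miR-221 over miR-126 the diet differences kept their sign and call under all 6 alternatives that apply to a ratio. With normexp the depot differences in High fat steers were 0.04 for miR-221 and 0.08 for miR-222.

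The miRNAs most like each member were ranked by the SD of their log2 ratio to it over the arrays that detected it, which no scaling changes and which is a description without a test. The arrays of a diet share their slides and their brightness. For miR-126, over 32 arrays and 90 miRNAs detected on each, bta-miR-26b (SD 0.423), bta-miR-107 (0.463) and bta-miR-10b (0.521) were closest, against a median SD of 1.84. On the 16 High fat diet arrays alone, bta-miR-126* was the 2nd closest of 158 miRNAs (SD 0.159), after bta-miR-30c (0.149) and before bta-miR-107 (0.161). For miR-221, over the 28 arrays that detected it, the closest of 91 were bta-miR-223 (0.472), bta-let-7i (0.593) and bta-miR-155 (0.594). miR-126 was 86th (1.67). For miR-222, over 14 arrays, miR-221 was closest of 92 (0.222, against a median of 0.817), followed by bta-miR-155 (0.456) and bta-miR-204 (0.465), and miR-126 was 90th. miR-221 stayed the closest when all 137 miRNAs detected on those 14 arrays were ranked.

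Other miRNAs linked to endothelium and vessel growth did not all go with miR-126. The 15 such miRNAs tested include bta-miR-126*, the other arm of the miR-126 hairpin, which was called higher in both depots. Of the 15, 10 were higher and 3 lower in High fat steers in subcutaneous fat, where 76% of all 233 miRNAs were called and 41.6% were higher. Their median log2 difference was 1.10 against 0.10 over all. In visceral fat 10 were higher and 2 lower, where 71.7% of all were called and 42.1% were higher (median 1.22 against 0.17). These counts and medians set undetected arrays to the common floor. This matters for miRNAs that most Control diet arrays did not detect, such as bta-miR-126* and bta-miR-210. bta-miR-10b, which is expressed in endothelium, rose by 1.39 in subcutaneous and 1.48 in visceral fat (adjusted p = 4.38e-07 and 1.35e-07). bta-miR-130a, which promotes vessel growth, was undetected on some Control diet arrays and, with those at the higher of limit and probe signal, differed by 2.75 and 2.83 on the log2 scale. In contrast bta-miR-92, of the miR-17-92 cluster, fell by 1.73 and 1.98 (adjusted p = 4.35e-11 and 2.8e-12). bta-miR-155, found in endothelial and immune cells, fell by 1.24 and 1.57 (adjusted p = 8.82e-06 and 1.77e-07). By qRT-PCR, the paper reported miR-92a and miR-92b as higher in High fat steers. It lists both among the miRNAs on which array and qRT-PCR diverged. The array falls of bta-miR-92 and bta-miR-155 and the counts above hold for the scaled axis. On it the median of the 91 miRNAs detected on all arrays was itself at -0.91 and -0.80, and bta-miR-181a at -2.01 and -1.88. The paper took bta-miR-181a as its qRT-PCR reference because it found its expression stable. Relative to bta-miR-181a, bta-miR-155 in both depots and bta-miR-92 in subcutaneous fat were higher in High fat steers. bta-miR-92 in visceral fat stayed lower. As for miR-221, a change of scaling can change the sign of such differences. bta-miR-210, which low oxygen induces, was detected on 1 and 0 of 8 Control diet arrays and on all High fat diet arrays. With undetected arrays at the higher of limit and probe signal, it was 2.41-fold higher in subcutaneous fat. In visceral fat the difference with undetected arrays at their own limit was 0.20 (adjusted p = 0.527). The fit at the common floor gave 1.41 there (adjusted p = 2.56e-12) and counted bta-miR-210 among the 10 higher.

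With depot, few of the endothelial list were called. In Control steers limma called 0 of the 15 higher and 3 lower in visceral fat (2 and 3 at an unadjusted p under 0.05, 0 and 0 by the methods' t-test), where 18.9% of all miRNAs were called. In High fat steers 1 was higher and 4 were lower, where 26.2% of all were called (median -0.12 against 0.02 over all miRNAs), so that the counts called are near the background. Those lower in High fat steers included bta-miR-155 (-0.71, adjusted p = 0.0172) and bta-miR-210 (-0.70, adjusted p = 4.08e-05, and 0.0713 in the fit with undetected arrays at their own limit). The smooth muscle miRNA bta-miR-145 was, like miR-126, higher in visceral fat, by 0.56 (adjusted p = 0.0317, and 0.0526 in that fit) in Control steers and 0.67 (adjusted p = 0.00847) in High fat steers. It did not pass the threshold with diet (-0.12 and -0.01, adjusted p = 0.561 and 0.976). bta-miR-143, from the same primary transcript, was detected on 2 and 3 of 8 Control diet arrays. With undetected arrays at the higher of limit and probe signal, it was 2.08 and 1.60 log2 units higher in High fat steers.

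miRNAs reported to fall in adipogenesis, as miR-221 and miR-222 do, were 6 of 7 tested. Some of them, such as bta-miR-130a and bta-miR-155, are also on the endothelial list. With the High fat diet 4 of the 6 rose and 1 fell in subcutaneous fat, and 3 rose and 1 fell in visceral fat. Between depots limma called 0 of the 6 in Control steers (0 also at an unadjusted p under 0.05 and by the methods' t-test), and 2 were lower in visceral fat in High fat steers. By comparison, 18.9% and 26.2% of all 233 miRNAs were called between depots in Control and High fat steers, and 12% and 14.6% were lower in visceral fat. Of 7 miRNAs that rise in adipogenesis, 5 rose and 1 fell with the High fat diet in subcutaneous fat, and 6 rose and 0 fell in visceral fat (0 fell also at an unadjusted p under 0.05 and by the methods' t-test). Among all miRNAs tested, 41.6% and 42.1% were higher with the High fat diet in subcutaneous and visceral fat, and 76% and 71.7% were called. All these counts set undetected arrays to the common floor.

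Blood cell miRNAs were brighter in High fat steers, as was the whole array. Over 6 such miRNAs the summed unscaled intensity in Control steers was 44.6 to 146 (median 72.2) in subcutaneous and 53.6 to 130 (median 69.6) in visceral fat. Among High fat steers it was 452 to 1320 (median 785) and 192 to 590 (median 285), beside the 5.42-fold ratio of the whole array with both depots pooled. bta-miR-142 was detected on 0 Control diet arrays and all 16 High fat diet arrays, and bta-miR-451 on 5 and 16. bta-miR-144 and bta-miR-150 were detected on 0 Control diet arrays and on 1 High fat diet array each, while bta-miR-486 and bta-miR-223 were detected on all. On the scaled axis 2 of the 4 tested were higher and 1 lower with the High fat diet in subcutaneous fat, and 2 were higher and 2 lower in visceral fat. Of all 233 miRNAs, 76% and 71.7% were called in subcutaneous and visceral fat, and 41.6% and 42.1% were higher. Undetected arrays stood at the common floor in these counts. bta-miR-223 of myeloid cells, the miRNA closest to miR-221, was lower in visceral fat in High fat steers (-0.85, adjusted p = 0.0379), and in Control steers its depot difference was -0.03. The part of blood cells in the levels of miR-221, miR-222 and miR-126 was not tested.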

How the data were processed

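Labels gave the diet, depot and steer of every sample. According to the file headers, the authors extracted the arrays with Feature Extraction 10.7.3.1 and deposited background-subtracted intensities: a total per miRNA, summed over those probes that passed the software's own test (1 or 2 of 3 for bta-miR-221), with a detection call and 0.1 where undetected. The authors also deposited log2 values from GeneSpring, shifted by a percentile of each array, whose 244 features above 0 all matched 1 miRNA by value (tolerance 1e-05). These were used only as an alternative. The array holds 20 spots per miRNA, of which 3.30% carried an outlier mark and 0 were saturated.

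Each total was scaled to the 75th percentile of the 91 miRNAs that every array detected. A common floor was set at log2 -7.22, the median array's lowest scaled value with a detection call. A detection limit is that lowest value on the array itself, taken over all miRNAs, so that a given miRNA may have a higher limit. Where stated, undetected arrays were set to the higher of it and the summed signal of the miRNA's probes. Such differences are estimates and not strict lower bounds. Of the 240 miRNAs detected on at least 8 arrays, 233 were not at the floor throughout and were tested with limma 3.58.1 (R 4.3.3, 4 groups in 1 fit, two-sided, Benjamini-Hochberg adjusted p under 0.05). Ratios were fitted in the same way after subtracting the log2 intensity of a member. The procedure was tested on simulated data.

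Each steer gave both depots, so the labels pair the samples. Deviations from the group means correlated above 0.1 in 5 of 16 pairs (range -0.39 to 0.65). Fits with and without the steer as a replicate block were run, as were those listed in the closing section. Setting undetected arrays to their own limit and using only the brightest probe were added after seeing the data. The members and the lists were chosen with earlier results of these data known. Named were the 3 members, bta-miR-126*, the 3 miRNAs closest to each member, and 8 miRNAs of the lists. For bta-miR-221 and bta-miR-222, closeness was taken over the arrays that detected them. bta-miR-30c and the blood miRNAs other than bta-miR-223 were named after their values were seen. With 8 arrays in each group, their number and their detection limits set the precision. The annotation, used for names and neighbours only, was of another assembly than the array design, so no coordinates are given.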

Additional observations from a re-analysis of the deposited data

How the results depend on the processing

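The diet difference of miR-126 kept its direction and call under 14 of 15 alternatives in each depot, and the ratio of miR-221 to miR-126 kept its own with diet under all 6 that apply to a ratio. That of miR-222 did too, but miR-222 was detected on 2 of 8 and 0 of 8 Control diet arrays. Other differences are given below where they changed side or sign, as log2 values, and the cause was not tested unless stated. Over the results on the 3 members, their ratios and all alternatives, 156 values kept direction and call, 43 changed sign, 34 lost the call and 27 gained it. The number of miRNAs called moved too, from 177 with diet in subcutaneous fat to 226 with normexp and 131 with the methods' t-test, and between depots in High fat steers from 61 to 191 with normexp and 14 with the deposited values. In Control steers, where miR-222 read near its error, detection limits bar any direction for it.

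With the percentile over every miRNA on the array, miR-126 was -2.03 and -2.42 with diet in subcutaneous and visceral fat and lost its depot calls (0.98 in Control steers, 0.59 in High fat steers). miR-221 was -4.48 and -2.79 with diet, both called, and -2.41 between depots in Control steers, not called. miR-222 was -0.77 and -0.37 with diet, -0.33 between depots in High fat steers and 0.40 for the interaction. bta-miR-126* was 1.77 with diet in visceral fat, not called.

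Without scaling, miR-126 was 0.28 and -0.30 between depots on the Control and High fat diet. miR-221 was 2.58 and 1.68 with diet in subcutaneous and visceral fat, -0.76 and -1.65 between depots and -0.89 for the interaction. miR-222 was 2.67 and 0.82 with diet and -1.85 for the interaction, and bta-miR-126* was -0.54 between depots in High fat steers. Scaling to the labelling spike-ins gave 0.43 and 0.056 for miR-126 between depots. It gave 2.83 and 2.10 for miR-221 with diet, -0.57 and -1.30 between depots and -0.73 for the interaction. miR-222 was then 2.78 and 0.88 with diet and -1.91 for the interaction, and bta-miR-126* -0.19 between depots in High fat steers. Scaling to bta-miR-181a gave 0.54 and 0.32 for miR-126 between depots. miR-221 was then 1.67 and 1.64 with diet, -1.03 between depots in High fat steers and -0.026 for the interaction, and miR-222 was 2.15 and 0.58 with diet and -1.57 for the interaction. Quantile normalization gave miR-126 0.48 between depots in Control steers and 0.046 for the interaction, miR-221 -1.40 between depots in High fat steers, and miR-222 -0.12 with diet in subcutaneous fat, -0.31 between depots in High fat steers and 0.12 for the interaction.

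With normexp, miR-126 was 0.45 between depots in Control steers and 0.0098 for the interaction. miR-221 was -2.07 and -1.74 with diet, called in both depots, and 0.17 and 0.50 between depots. miR-222 was -2.14 and -1.79 with diet, 0.19 and 0.54 between depots and 0.35 for the interaction. bta-miR-126* was -0.51 and -0.37 with diet, 0.39 between depots in High fat steers and 0.15 for the interaction. The ratio to miR-126 was -0.27 and 0.041 between depots for miR-221 and -0.25 and 0.085 for miR-222. From single spot intensities, miR-221 was -1.44 and -1.59 with diet, -0.17 between depots in Control steers, -0.15 for the interaction and -0.80 as a ratio to miR-126 between depots in Control steers. miR-222 was -1.19 and -1.30 with diet and -0.33 between depots in High fat steers.

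In the deposited values, miR-126 was 0.35 and 0.60 between depots, neither called, and 0.24 for the interaction. miR-221 was -1.73 and -0.89 with diet, both called. miR-222 was -0.24 with diet in subcutaneous fat, -0.051 between depots in High fat steers and 0.24 for the interaction, and its ratio to miR-126 was -0.65 between depots on both diets. With the brightest probe only, miR-126 was 0.054 for the interaction. miR-221 was -0.60 and -0.63 with diet, called, -0.50 between depots in Control steers and -0.026 for the interaction. miR-222 was -0.036 and -0.028 with diet, -0.76 between depots in Control steers and 0.0079 for the interaction. bta-miR-126* was 0.63 between depots in Control steers, called. With undetected arrays at their own limit, miR-221 was -0.94 with diet in visceral fat, -0.18 and -0.78 between depots and -0.61 for the interaction. miR-222 was -0.31 and -1.55 with diet and 0.19 between depots in Control steers. bta-miR-126* was 0.88 between depots in Control steers, called. The ratios to miR-126 between depots in Control steers were then -0.84 for miR-221 and -0.47 for miR-222.

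With the steer as a replicate block, the depot differences of miR-126 (0.66 and 0.57) lost their call and that of miR-221 in High fat steers (-0.78) gained it, and the block changed no other call on the members. With the position on the slide as a block, 0.57 for miR-126 in High fat steers lost its call. By the methods' t-test with Bonferroni correction, 0.66 for miR-126 and -1.07 for miR-221 in Control steers and -0.66 for miR-222 in High fat steers lost theirs.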
